A study of Homo sapiens with 9 samples.

Results

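The clustered histone genes analysed here were all rows of the deposited count table whose symbol begins with HIST, a cluster number and H, the older human nomenclature (HIST1H2AC, for example). There were 62 of them among 21229 genes. They encode the linker histone H1 (5 genes) and the core histones H2A (15 genes), H2B (16 genes), H3 (11 genes) and H4 (15 genes). By symbol and by the GENCODE release 29 annotation of GRCh38, 48 belonged to the HIST1 cluster on chromosome 6, 11 to HIST2 and 2 to HIST3 on chromosome 1, and 1 was HIST4H4 on chromosome 12.

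The RNA came from hematopoietic cells made in culture from H1 cells, a human embryonic stem cell line whose name has nothing to do with histone H1. The 9 libraries were 3 of CD90+ cells with GATA2 overexpression, 3 of CD90+ control cells and 3 of CD38+ control cells. GATA2 is a transcription factor of blood stem and progenitor cells, CD90 is the surface product of THY1, and CD38 is a surface enzyme found on more mature blood cells. The labels do not say how GATA2 was overexpressed, whether the cells were 1 clone, or whether the 3 replicates of a group came from separate cultures, so p-values measure the spread between these libraries, which may be technical.

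Most clustered histone genes are replication-dependent: they are transcribed in S phase, when new DNA needs new nucleosomes, at nuclear bodies organised by the coactivator NPAT. Their mRNAs usually carry no poly(A) tail and end just after a conserved stem-loop that is bound by SLBP and is needed for processing, translation and decay. Some cluster members also give a longer, polyadenylated mRNA, known especially from differentiated and non-cycling cells. The sources used here do not say whether poly(A)+ RNA was selected for the libraries, a choice that would decide which of these mRNAs is counted.

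The stem-loop is shown first, because its presence, the sequence beyond it and the number of exons define the classes of annotated gene model used below. Transcripts of 31 members held the 16-base element in GENCODE 29, in the 6 versions printed here as DNA, with the paired stem in capitals, the loop in lower case and a position of 1 member on GRCh38 before each.
HIST1H2AC (17 members of H2A, H2B and H3), chr6:26124669-26124684, + strand: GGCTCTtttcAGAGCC
HIST1H2BC (4 members of H2B and H3), chr6:26123472-26123487, - strand: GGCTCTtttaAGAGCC
HIST1H3E (1 member), chr6:26225596-26225611, + strand: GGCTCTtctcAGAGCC
HIST1H2AG (1 member), chr6:27133515-27133530, + strand: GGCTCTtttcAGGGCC
HIST1H4E (5 members, all H4), chr6:26205001-26205016, + strand: GGCCCTtttcAGGGCC
HIST1H4I (3 members, all H4), chr6:27139654-27139669, + strand: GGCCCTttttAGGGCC
All 8 H4 stem-loops opened with GGCCCT and all of the others with GGCTCT, and no H1 model held the element. It was not found in the annotated transcripts of the other 31 members, HIST1H4C and all 5 H1 genes among them, and no sequence beyond an annotated end was searched.

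Promoter sequence is shown for 7 members: the H1 gene with the largest rise, a head-to-head pair of an H2A and an H2B gene, and an H3 and an H4 pair of which 1 gene rose and the other fell. RefSeq promoters on GRCh38.p14 matched 57 of the 62 members. Each line gives the 120 bases before the RefSeq start, 5′ to 3′ on the gene's strand. Capitals mark the octamer ATTTGCAT (bound by POU2F1), CCAAT boxes (CCAAT, or ATTGG on the other strand), the TATA box TATAAA (searched on the gene's strand only), the H4 element GGTCCG and the H1 box AAACACA, on either strand. In HIST2H2BE an H4 element on the other strand overlaps the CCAAT box.
HIST1H1B, chr6:27867589-27867708, - strand: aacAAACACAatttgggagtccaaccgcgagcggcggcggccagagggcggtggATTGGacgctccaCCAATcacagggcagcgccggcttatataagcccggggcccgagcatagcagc
HIST2H2AC, chr1:149886798-149886917, + strand: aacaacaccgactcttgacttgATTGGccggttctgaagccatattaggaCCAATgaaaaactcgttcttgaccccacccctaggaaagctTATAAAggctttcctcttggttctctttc
HIST2H2BE, chr1:149886683-149886802, - strand: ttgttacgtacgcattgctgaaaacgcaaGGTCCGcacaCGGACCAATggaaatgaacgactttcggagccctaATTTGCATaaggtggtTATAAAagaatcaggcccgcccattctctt
HIST1H3B, chr6:26032100-26032219, - strand: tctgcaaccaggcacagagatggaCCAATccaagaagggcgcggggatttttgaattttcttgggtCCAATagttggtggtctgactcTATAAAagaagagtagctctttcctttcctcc
HIST1H3H, chr6:27809931-27810050, + strand: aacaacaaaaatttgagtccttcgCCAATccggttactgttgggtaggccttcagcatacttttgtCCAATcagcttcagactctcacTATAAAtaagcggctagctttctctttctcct
HIST1H4E, chr6:26204490-26204609, + strand: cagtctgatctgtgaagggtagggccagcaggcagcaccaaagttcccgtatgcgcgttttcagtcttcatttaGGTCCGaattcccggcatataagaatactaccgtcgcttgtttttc
HIST1H4H, chr6:26285535-26285654, - strand: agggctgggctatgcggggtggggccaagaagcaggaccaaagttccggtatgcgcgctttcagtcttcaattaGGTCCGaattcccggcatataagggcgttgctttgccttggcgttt
Over the full window of 250 bases before the start, with all motifs but the TATA box searched on both strands, the octamer was found in 10 of 14 H2A and 12 of 16 H2B promoters and in no H1, H3 or H4 promoter, against 1.66% of all 27305 promoters in the table. The windows of head-to-head H2A and H2B genes can overlap, so 1 octamer can count for both genes. HIST1H2AD and HIST1H2BF, for example, were counted for the same octamer. CCAAT boxes were found in 82.5% of members, against 33.04% of all promoters, and TATAAA in 57.9%, against 7.17%. The H4 element was found in 12 of 13 H4 promoters, and in 1 promoter each of H2A, H2B (HIST2H2BE) and H3, against 9.33% of all, and the H1 box in 5 of 5 H1 promoters, against 4.95% of all. The HIST1H4E and HIST1H4H windows printed above were the same at 90 of 120 positions (75.0%), and those of HIST1H3B and HIST1H3H at 51 (42.5%). These matches describe letters in a window and say nothing of binding.

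Counts per library totalled 37500192 to 39582736 with GATA2 overexpression, 42577569 to 47261093 in CD90+ control and 42695005 to 45561088 in CD38+ control. Levels below are CPM (counts scaled to a fixed library total) after TMM scaling, whose factors were 0.978 to 0.981 with GATA2 overexpression, 1.16 to 1.17 in CD90+ control and 0.876 to 0.877 in CD38+ control. GATA2 averaged 376 ± 12.8 CPM with overexpression, 87.3 ± 1.93 CPM in CD90+ control and 569 ± 16.3 CPM in CD38+ control (SD, n = 3 each). THY1 averaged 3.06 ± 0.439 CPM with overexpression and 4.43 ± 0.632 CPM in CD90+ control, and had 0 counts in CD38+ control. CD38 averaged 2.23 ± 0.514 CPM with overexpression, 4.37 ± 0.382 CPM in CD90+ control and 122 ± 2.40 CPM in CD38+ control. The blood cell genes PTPRC and CD34 were detected in every group. Of the 62 members, 53 had enough counts to be tested. The other 9 (HIST1H1T, HIST1H2AD, HIST1H2AM, HIST1H2BI, HIST1H2BM, HIST1H4A, HIST1H4G, HIST1H4L and HIST3H2BB) had 0 to 15 counts per library.

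Clustered histone genes took 0.244%, 0.239% and 0.245% of all counts in the GATA2 overexpression libraries, 0.0946%, 0.0962% and 0.0950% in CD90+ control and 0.0913%, 0.0895% and 0.0845% in CD38+ control. The overexpression libraries were all higher than the other 6, and the CD90+ control libraries lay above those of CD38+ control. These are shares of raw counts, and the order of the controls turned under the TMM scaling used for all levels and tests, where the 62 genes summed to 2476 ± 36.1 CPM with GATA2 overexpression, 819 ± 5.10 CPM in CD90+ control and 1010 ± 40.8 CPM in CD38+ control (SD, n = 3 each). Most of this came from 1 gene, HIST1H4C, one of the many genes for the same H4 protein, which held 87.8% ± 0.321 of the histone counts with GATA2 overexpression, 74.9% ± 0.153 in CD90+ control and 78.0% ± 1.12 in CD38+ control (SD, n = 3 each). Without it the share was 0.0297% ± 0.000300 with GATA2 overexpression, 0.0239% ± 0.000100 in CD90+ control and 0.0194% ± 0.000529 in CD38+ control. The GATA2 overexpression libraries thus stayed highest without HIST1H4C, with a narrower gap. TMM scaling again put CD90+ control, at 205 ± 0.986 CPM for the 61 genes, below CD38+ control, at 221 ± 6.45 CPM (SD, n = 3 each). In RNA from bulk cells, a lower share of cells in S phase and less histone RNA per cell cannot be told apart.

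**Figure D1:**
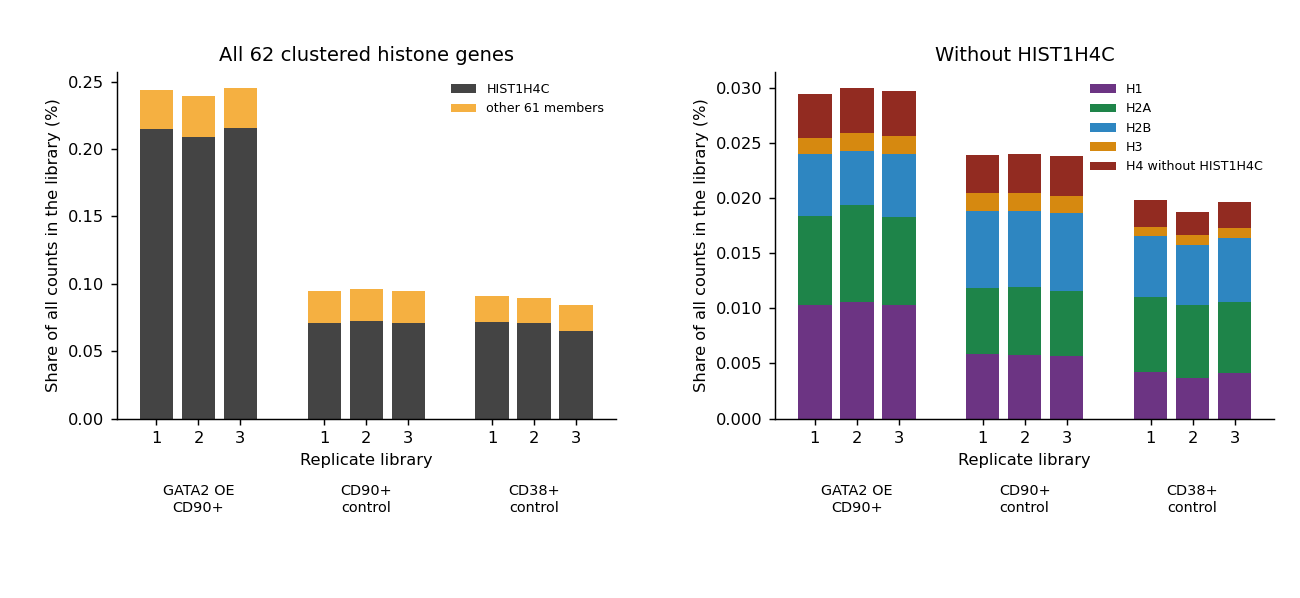
Share of all counts (%) in each of the 9 libraries taken by the 62 clustered histone genes, split into HIST1H4C and the other 61 members (left), and by the other 61 members split by histone type (right). The GATA2 overexpression bars reach 0.239% to 0.245% on the left and CD38+ control bars 0.0845% to 0.0913%.

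The types did not share 1 order. H1 genes took 0.0104% ± 0.000173 of counts with GATA2 overexpression, 0.00576% ± 7.64e-05 in CD90+ control and 0.00402% ± 0.000299 in CD38+ control. H2A genes took 0.00827% ± 0.000397 with GATA2 overexpression, 0.00604% ± 0.000126 in CD90+ control and 0.00660% ± 0.000210 in CD38+ control. H2B genes took 0.00543% ± 0.000394 with GATA2 overexpression, 0.00694% ± 6.56e-05 in CD90+ control and 0.00562% ± 0.000193 in CD38+ control, so that here the CD90+ control libraries were above both others, whereas the TMM-scaled H2B sums were 55.4 ± 4.03 CPM with GATA2 overexpression, 59.6 ± 0.577 CPM in CD90+ control and 64.1 ± 2.18 CPM in CD38+ control. H3 genes took 0.00157% ± 8.66e-05 with GATA2 overexpression, 0.00164% ± 6.66e-05 in CD90+ control and 0.000845% ± 2.36e-05 in CD38+ control. H4 genes without HIST1H4C took 0.00402% ± 9.50e-05 with GATA2 overexpression, 0.00353% ± 0.000112 in CD90+ control and 0.00231% ± 0.000142 in CD38+ control (SD, n = 3 each, no test). The H3 sums also changed order with TMM scaling, to 16.0 ± 0.893 CPM with GATA2 overexpression, 14.1 ± 0.592 CPM in CD90+ control and 9.64 ± 0.268 CPM in CD38+ control. The order of the 3 groups was the same on both scales for the H1, H2A and other H4 genes.

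Levels were compared between genes per kilobase of merged exons. HIST1H4C led, at 4995 CPM per kb in GATA2 overexpression, 1410 in CD90+ control and 1812 in CD38+ control libraries. The next level over all libraries was that of HIST1H2BK, at 41.7 with GATA2 overexpression, 36.9 in CD90+ control and 68.2 in CD38+ control. HIST1H1C followed at 63.6 with GATA2 overexpression, 38.6 in CD90+ control and 32.5 in CD38+ control. In the same unit HIST1H2AC had 33.5 with GATA2 overexpression, 20.6 in CD90+ control and 35.0 in CD38+ control, and HIST1H1E 42.5 with GATA2 overexpression, 18.2 in CD90+ control and 23.3 in CD38+ control. The gap between HIST1H4C and every other member was thus far wider than that among the next 4. The level depends on the length of the annotated model, and 12 members, none of these 5, had a near-identical copy among annotated transcripts that could take or share their reads.

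**Figure D2:**
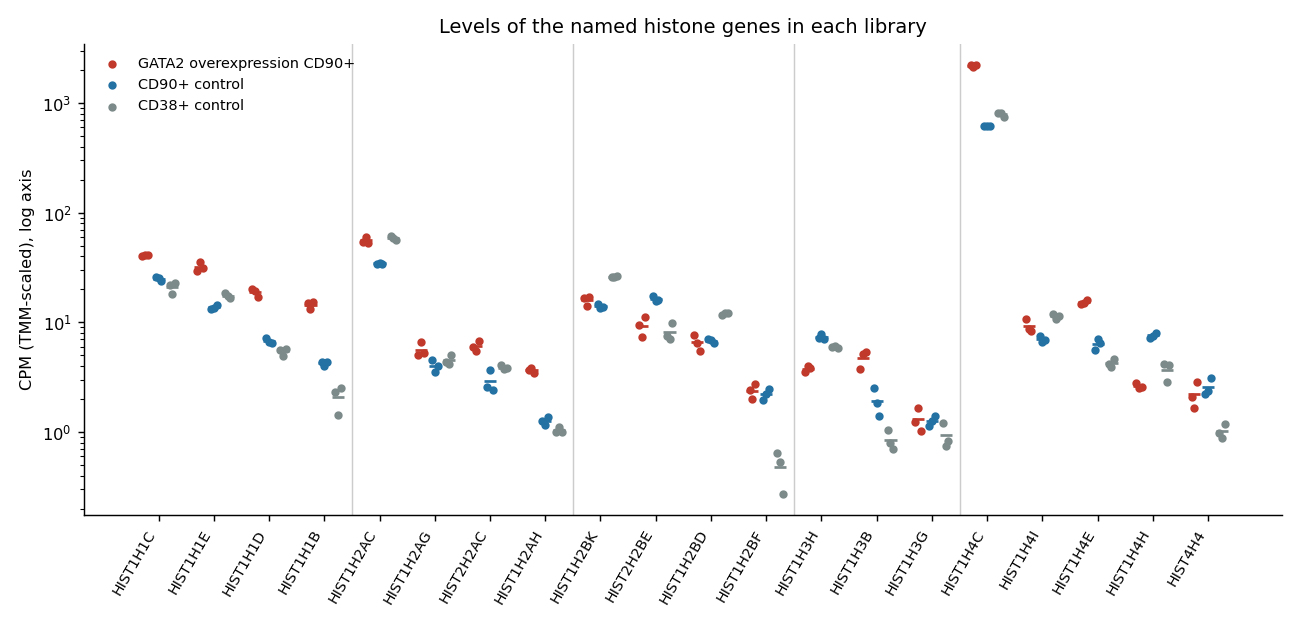
CPM (TMM-scaled, log axis) of the 20 named histone genes in each library, ordered by type and, within a type, by mean level; points are libraries and bars are group means. HIST1H4C lies at 2129 to 2196 CPM with GATA2 overexpression, and no other gene reaches 100 CPM.

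In CD90+ cells, GATA2 overexpression was compared with control to ask how the histone genes differed with the extra GATA2. Of the 53 members tested, 26 rose and 5 fell at an adjusted p under 0.05 (edgeR quasi-likelihood test, Benjamini-Hochberg adjustment over 16232 genes), and 22 were not called. The background over all 16232 genes was 38.0% called higher and 39.6% called lower, 77.6% in either direction, so a call by itself was common. The members' shares were 49.1% higher and 9.43% lower. Their median log2 fold change was 0.65, against -0.04 over all genes. Of the 32 members with a mean of at least 1 CPM, 18 rose and 4 fell (56.2% and 12.5%). Libraries of the groups did not overlap for 34 of the 53 tested members, 30 of them called, against 80.4% of all genes tested. Without replicate 2 of the GATA2 overexpression group 25 rose and 3 fell, and with library size alone as scaling 20 rose and 8 fell. Of the 11 tested members with a near-identical copy 5 rose and none fell, and these values are uncertain where reads of copies were split or dropped. Without the 3 tested members that passed the filter's cutoff in only 3 libraries, 24 of 50 rose and 5 fell.

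HIST1H4C (ENSG00000197061.4, chr6:26103876-26104310, 1 exon) had 2194, 2129 and 2196 CPM with GATA2 overexpression, against 611, 619 and 610 CPM in CD90+ control. All 3 overexpression libraries lay far above all 3 controls. It rose by a log2 fold change of 1.82 ± 0.03 (SE, 3.54-fold, adjusted p = 9.96e-18).

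The H1 genes encode linker histones, which bind the DNA between nucleosomes. All 4 that were tested rose, with a median log2 fold change of 1.35. HIST1H1B (ENSG00000184357.4, chr6:27866849-27867529), whose promoter is printed above, had 14.9, 13.2 and 15.2 CPM with GATA2 overexpression and 4.32, 3.99 and 4.37 CPM in CD90+ control, with no overlap. Its log2 fold change was 1.77 ± 0.15 (SE, 3.41-fold, adjusted p = 1.45e-08). HIST1H1D had 20.0, 19.2 and 17.0 CPM with GATA2 overexpression, against 7.17, 6.58 and 6.54 CPM in control. HIST1H1E had 29.4, 35.2 and 31.4 CPM with GATA2 overexpression, against 13.1, 13.6 and 14.3 CPM in control. HIST1H1C, the most abundant of the 4, had 40.5, 40.7 and 41.2 CPM with GATA2 overexpression, against 25.8, 25.1 and 23.6 CPM in control. Groups did not overlap in any of these, and the 3 log2 fold changes were 1.47 ± 0.10, 1.23 ± 0.07 and 0.72 ± 0.07 (SE, adjusted p = 5.68e-10, 1.03e-10 and 4.88e-08), so HIST1H1C had the smallest rise.

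H2A and H2B form dimers that pack against the H3 and H4 core of the nucleosome. Of 13 H2A genes 9 rose and 1 fell (median log2 fold change 0.70), and of 13 H2B genes 2 rose and 2 fell (median 0.05). Without the 3 H2A genes that reached the filter's cutoff in only 3 libraries, 7 of 10 H2A genes rose and 1 fell (median 0.70). The H2A counts were 8 and 1 with library size alone and the H2B counts 1 and 5, and the difference between the types was not tested. HIST1H2AC (ENSG00000180573.9), the most abundant H2A gene, had 54.4, 60.2 and 53.1 CPM with GATA2 overexpression, against 34.2, 34.8 and 34.3 CPM in CD90+ control. The groups did not overlap, at a log2 fold change of 0.70 ± 0.05 (SE, adjusted p = 9.83e-10). HIST1H2AH had 3.64, 3.84 and 3.48 CPM with GATA2 overexpression, against 1.26, 1.16 and 1.37 CPM in control. It rose 2.89-fold, a log2 fold change of 1.53 ± 0.17 (SE, adjusted p = 4.75e-07). HIST2H2AC had 5.94, 5.43 and 6.77 CPM with GATA2 overexpression, against 2.57, 3.70 and 2.42 CPM in control, again with no overlap (log2 fold change 1.06 ± 0.17, SE, adjusted p = 2.35e-05). HIST1H2AG had 4.99, 6.62 and 5.30 CPM with GATA2 overexpression, against 4.50, 3.52 and 3.97 CPM in control. This smaller rise, a log2 fold change of 0.50 ± 0.15 (SE), had an adjusted p of 0.00719, which became 0.0505 without replicate 2 of GATA2 overexpression and 0.145 with library size alone. The H2A gene that fell, HIST1H2AE, is low, at 0.671 ± 0.127 CPM with GATA2 overexpression and 1.15 ± 0.251 CPM in control (SD, n = 3 each, adjusted p = 0.0473), and is named because it was the only such H2A call.

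Among H2B genes, HIST2H2BE (ENSG00000184678.10, chr1:149884459-149886652) had 9.40, 7.29 and 11.1 CPM with GATA2 overexpression, against 17.4, 15.7 and 16.0 CPM in CD90+ control. It fell with no overlap between groups, by 0.82 ± 0.14 on the log2 scale (SE, adjusted p = 4.35e-05). HIST1H2BK had 16.7, 14.0 and 17.0 CPM with GATA2 overexpression, against 14.8, 13.5 and 13.8 CPM in control. Its groups overlapped and its call was marginal, at a log2 fold change of 0.18 ± 0.08 (SE, adjusted p = 0.0460). The call was lost with the sign kept in 11 of 18 alternatives. With library size alone the log2 fold change became -0.07 and was not called either (adjusted p = 0.419). HIST1H2BD had 7.65, 6.49 and 5.52 CPM with GATA2 overexpression, against 7.07, 6.97 and 6.42 CPM in control. Its log2 fold change was -0.06, with a 95% interval of -0.31 to 0.20. HIST1H2BF had 2.40, 2.01 and 2.75 CPM with GATA2 overexpression, against 1.96, 2.21 and 2.46 CPM in control, and its interval ran from -0.36 to 0.58. Groups overlapped for both, and neither was called.

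**Figure D3:**
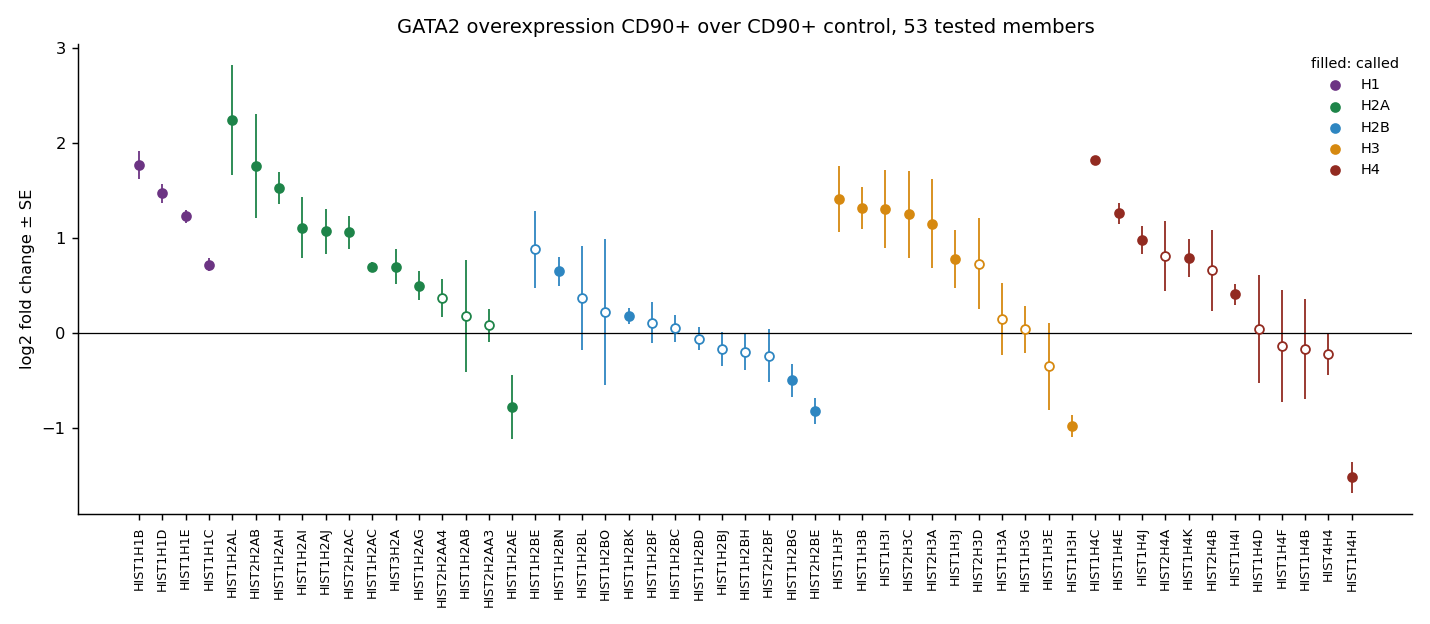
Log2 fold change of GATA2 overexpression CD90+ over CD90+ control for the 53 tested members, ordered within each histone type; error bars are SE and filled points are called at an adjusted p under 0.05. All 4 H1 points lie above 0, at 0.72 to 1.77, while H2B points run from -0.82 to 0.88.

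H3 and H4 form the central tetramer of the nucleosome. Of 11 H3 genes 6 rose and 1 fell (median log2 fold change 0.78), and of 12 H4 genes 5 rose and 1 fell (median 0.54). HIST1H3B had 3.77, 5.14 and 5.41 CPM with GATA2 overexpression, against 2.51, 1.83 and 1.39 CPM in CD90+ control. HIST1H3H had 3.49, 3.97 and 3.81 CPM with GATA2 overexpression, against 7.27, 7.84 and 7.05 CPM in control. The pair moved in opposite directions with no overlap in either, at log2 fold changes of 1.32 ± 0.22 and -0.98 ± 0.12 (SE, adjusted p = 4.11e-05 and 1.55e-06). The H3 gene HIST1H3G, at 1.24, 1.64 and 1.03 CPM with GATA2 overexpression and 1.14, 1.27 and 1.39 CPM in control, overlapped between groups and was not called (95% interval of the log2 fold change -0.49 to 0.58).

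Among H4 genes, HIST1H4E (ENSG00000276966.2, chr6:26204552-26206038) had 14.8, 15.0 and 15.9 CPM with GATA2 overexpression, against 5.64, 6.98 and 6.50 CPM in CD90+ control. HIST1H4H (ENSG00000158406.4, chr6:26277609-26285638, up to 3 exons) had 2.79, 2.54 and 2.58 CPM with GATA2 overexpression, against 7.19, 7.51 and 8.07 CPM in control. These are the promoters that matched at 75.0% of printed positions, and neither gene's groups overlapped. HIST1H4E rose by 1.26 ± 0.11 and HIST1H4H fell by 1.52 ± 0.16 on the log2 scale (SE, adjusted p = 1.98e-08 and 1.29e-07). HIST1H4I had 10.8, 8.72 and 8.40 CPM with GATA2 overexpression, against 7.46, 6.64 and 6.85 CPM in control, and rose without overlap (log2 fold change 0.41 ± 0.11, SE, adjusted p = 0.00342, but 0.191 with library size alone). HIST4H4, outside the large clusters, had 2.07, 1.67 and 2.88 CPM with GATA2 overexpression, against 2.20, 2.39 and 3.10 CPM in control. Its groups overlapped and it was not called (adjusted p = 0.373).

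The members were then set out by their annotated gene model. Of the 62, 26 had a long model, which has more than 1 exon or runs over 100 bases past the stem-loop, 7 ended near the stem-loop, and 29 had a short single-exon model without it. With GATA2 overexpression over CD90+ control, 15 of 21 tested members with a short model rose and none fell (median log2 fold change 1.07). Without 3 H2A genes that reached the filter's cutoff in only 3 libraries (HIST1H2AB, HIST1H2AL and HIST2H2AB), it was 13 of 18 (median 1.06). Of 25 with a long model 9 rose and 4 fell (median 0.11), and of 7 that ended near the stem-loop 2 rose and 1 fell (median 0.37). All genes tested were called 38.0% higher and 39.6% lower in this comparison. The long models thus rose about as often as all genes and fell less often, while the short models rose more often. The short models gave 14 rises and no fall with library size alone, and the long models 4 rises and 7 falls, so the sign of the long models rests on the scaling. HIST1H3H, HIST1H4H and HIST2H2BE, all long models, were the members with the largest falls among those of at least 1 CPM. H2B genes made up 11 of the 26 long models and H1 genes 5 of the 29 short ones, so model and type overlap. Within H2A all 3 long models (median log2 fold change 0.70) and 5 of 6 short ones (median 1.30) rose. Those 6 include the 3 genes named above, of which HIST1H2AL and HIST2H2AB rose, so the short H2A values rest partly on them. Within H3, 3 of 6 long models rose and 1 fell (median 0.41), and 3 of 5 short ones rose (median 1.31). Within H4, 2 of 6 long models rose and 1 fell (median 0.54), and 2 of 4 short ones rose (median 0.41). Within H2B, 1 of 10 long models rose and 2 fell (median -0.11), and 1 of 2 short ones rose (median 0.20). In CD90+ over CD38+ control 8 short models rose and 4 fell, and 11 long models rose and 5 fell. Without the same 3 H2A genes 7 of 18 short models rose and 4 fell. All genes were called 41.1% higher and 39.3% lower there. Both classes thus rose about as often as all genes and fell less often. In GATA2 overexpression over CD38+ control 17 of 21 short models rose and 1 fell, and 9 of 25 long models rose and 5 fell. Without the same 3 H2A genes 14 of 18 short models rose and 1 fell. The share of all genes called there was 43.3% higher and 39.9% lower. Short models thus rose more often than all genes and long models less often, and both fell less often. The difference between model classes was not tested, and the class comes from the annotation, not from 3′ ends measured in these libraries.

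**Figure D4:**
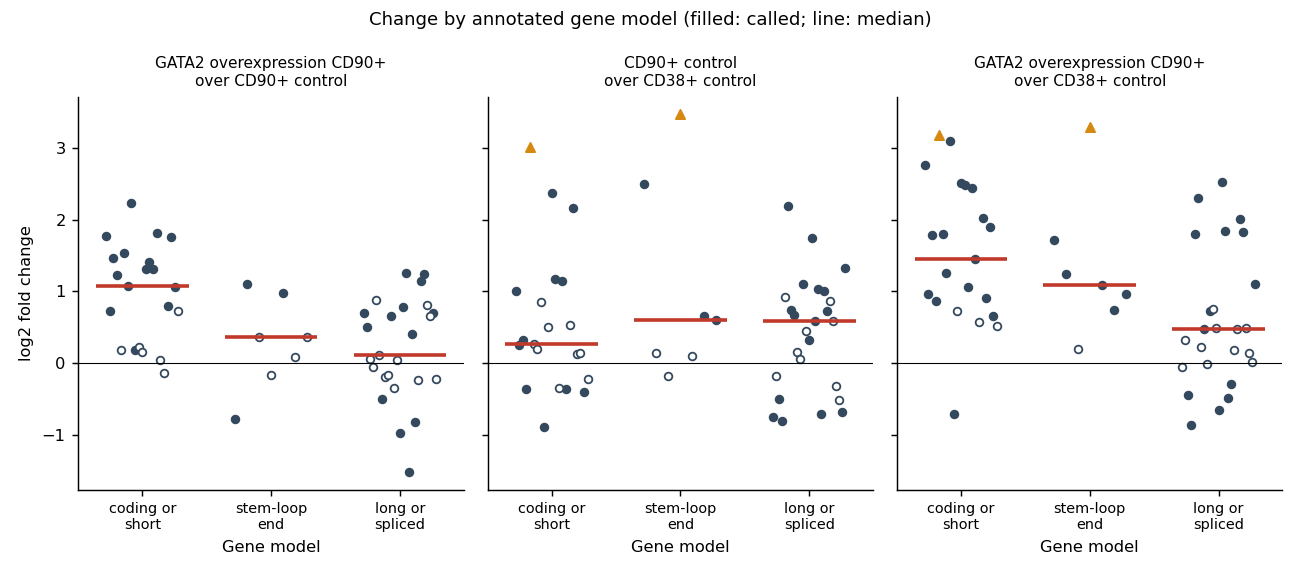
Log2 fold change of tested members in each of the 3 comparisons by annotated gene model; filled points are called, triangles are lower bounds for genes with 0 counts in CD38+ control, and lines are medians. In the left panel the medians are 1.07, 0.37 and 0.11, from short to long models.

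A total of 11 pairs of members lie head to head within 1000 bases, a layout in which both genes of a pair share the sequence between them. In 7 pairs both were tested, 6 of them an H2A with an H2B gene. The H2A partner had the higher log2 fold change in 5 of these 6 with GATA2 overexpression over CD90+ control, by up to 1.88. That widest gap was in HIST2H2AC and HIST2H2BE, 323 bases apart, whose values were 1.06 and -0.82. HIST1H2AH and HIST1H2BK, 331 bases apart, had 1.53 and 0.18, and HIST1H2AC and HIST1H2BC, 219 bases apart, had 0.70 and 0.05. The exception was HIST1H2AE, at -0.78, with HIST1H2BG at -0.50. In CD90+ over CD38+ control the H2A partner had the higher value in 3 of 6 pairs, and HIST2H2AC and HIST2H2BE there had -0.41 and 1.01, the other way round. The difference within a pair was not tested.

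**Figure D5:**
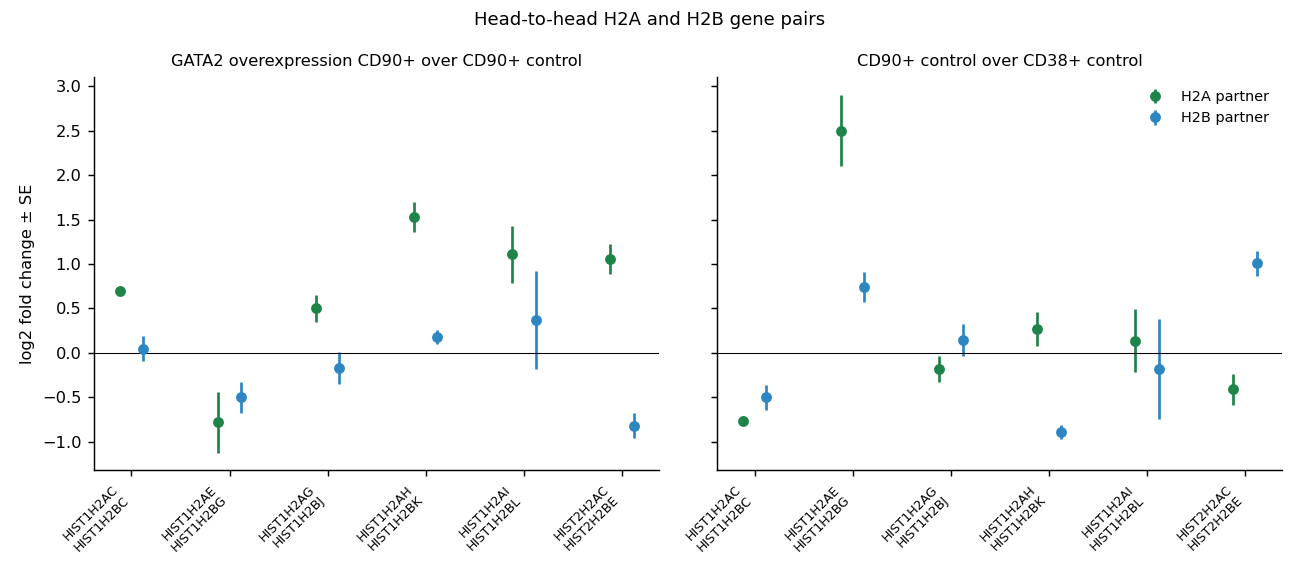
Log2 fold change ± SE of the H2A (green) and H2B (blue) gene in 6 head-to-head pairs, for GATA2 overexpression CD90+ over CD90+ control (left) and CD90+ control over CD38+ control (right). For HIST2H2AC and HIST2H2BE the values are 1.06 and -0.82 on the left and -0.41 and 1.01 on the right.

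Between the control cells, CD90+ was compared with CD38+ to ask how the surface phenotypes differed without added GATA2. In CD90+ control over CD38+ control 23 members rose, 9 fell and 21 were not called, against a background of 41.1% higher and 39.3% lower, 80.4% in all. The members' shares were 43.4% higher and 17.0% lower. Without the 3 tested members that reached the filter's cutoff in only 3 libraries, 22 of 50 rose and 9 fell. Of the 32 members with a mean of at least 1 CPM, 15 rose and 9 fell (46.9% and 28.1%). The groups did not overlap for 34 of the 53, against 82.8% of all genes. The median log2 fold change of members was 0.44, against 0.03 over all genes. Scaling mattered most here: with library size alone the median of all genes moved by 0.41, and 32 members were called higher and 4 lower.

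HIST1H4C had 611, 619 and 610 CPM in CD90+ control, against 817, 807 and 740 CPM in CD38+ control. It was lower without overlap under TMM scaling, by 0.36 ± 0.03 on the log2 scale (SE, adjusted p = 1.33e-08), but its log2 fold change was 0.05 with library size alone (adjusted p = 0.162), so its direction rests on the scaling. Of the H1 genes HIST1H1B, HIST1H1D and HIST1H1C were higher in CD90+ control and HIST1H1E was lower. HIST1H1B had 4.32, 3.99 and 4.37 CPM in CD90+ control, against 2.34, 1.44 and 2.53 CPM in CD38+ control. That was a rise of 1.0 ± 0.17 on the log2 scale (SE, adjusted p = 3.97e-05) with no overlap, the widest of the H1 genes in this comparison. HIST1H1E had a log2 fold change of -0.36 ± 0.08 (SE, adjusted p = 0.000367), which became 0.05 with library size alone.

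No H3 gene fell and 6 of 11 rose between CD90+ and CD38+ control, with a median log2 fold change of 0.86, and with library size alone 8 rose and none fell. HIST1H3B had 2.51, 1.83 and 1.39 CPM in CD90+ control, against 1.04, 0.802 and 0.701 CPM in CD38+ control, with no overlap. Its log2 fold change was 1.18 ± 0.25 (SE, adjusted p = 0.000433). Among H2B genes 5 rose and 3 fell. HIST1H2BF had 1.96, 2.21 and 2.46 CPM in CD90+ control, against 0.638, 0.535 and 0.275 CPM in CD38+ control, and HIST2H2BE 17.4, 15.7 and 16.0 CPM in CD90+ control, against 7.58, 7.03 and 9.81 CPM in CD38+ control. Both rose without overlap, by 2.20 ± 0.27 and 1.01 ± 0.14 on the log2 scale (SE, adjusted p = 8.87e-07 and 4.59e-06). HIST1H2BK had 14.8, 13.5 and 13.8 CPM in CD90+ control, against 25.9, 25.9 and 26.2 CPM in CD38+ control, and HIST1H2BD 7.07, 6.97 and 6.42 CPM in CD90+ control, against 11.7, 12.2 and 12.1 CPM in CD38+ control. Both fell without overlap, by 0.89 ± 0.08 and 0.81 ± 0.12 on the log2 scale (SE, adjusted p = 1.04e-08 and 7.64e-06).

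Of H2A genes 4 rose and 3 fell between CD90+ and CD38+ control. Without the 3 that reached the filter's cutoff in only 3 libraries, 3 of 10 rose and 3 fell. HIST1H2AC, at 34.2, 34.8 and 34.3 CPM in CD90+ control and 60.7, 58.1 and 56.2 CPM in CD38+ control, fell without overlap by 0.76 ± 0.05 on the log2 scale (SE, adjusted p = 2.64e-10). HIST2H2AC, with 2.57, 3.70 and 2.42 CPM in CD90+ control, against 4.07, 3.72 and 3.81 CPM in CD38+ control, fell by 0.41 ± 0.17 (SE, adjusted p = 0.0360), a call that was lost in 10 of 18 alternatives. Its adjusted p was 0.132 and 0.159 without replicates 1 and 3 of CD90+ control, 0.0881 and 0.0597 without replicates 1 and 3 of CD38+ control, and 0.99 with library size alone. Of H4 genes 5 rose and 2 fell. HIST4H4 had 2.20, 2.39 and 3.10 CPM in CD90+ control, against 0.984, 0.882 and 1.18 CPM in CD38+ control, and HIST1H4H 7.19, 7.51 and 8.07 CPM in CD90+ control, against 4.20, 2.83 and 4.08 CPM in CD38+ control. They rose 2.52-fold and 2.05-fold with no overlap (adjusted p = 6.64e-05 and 9.03e-06). HIST1H4I had 7.46, 6.64 and 6.85 CPM in CD90+ control, against 11.9, 10.8 and 11.5 CPM in CD38+ control, and was 1.64-fold lower without overlap (adjusted p = 2.20e-05). HIST1H2AB and HIST1H4B had 0 counts in all 3 CD38+ control libraries and averaged 0.208 and 0.289 CPM in CD90+ control, from 33 and 45 counts summed over its libraries. Set against a floor of 3 counts over the CD38+ group, each sum being divided by its group's summed scaled library sizes, that was at least 8.12-fold and 11.1-fold higher. With GATA2 overexpression they had 27 and 29 counts, at least 9.14-fold and 9.81-fold higher by the same measure.

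In GATA2 overexpression CD90+ over CD38+ control, which shares its libraries with both comparisons above and differs in both added GATA2 and surface marker, 32 members rose, 6 fell and 15 were not called. The background was 43.3% higher and 39.9% lower, 83.2% in all. The members' shares were 60.4% higher and 11.3% lower, and the groups did not overlap for 38 of the 53, against 83.0% of all genes. Their median log2 fold change was 0.91, against 0.07 over all genes. Of the 32 members with a mean of at least 1 CPM, 18 rose and 6 fell (56.2% and 18.8%). All 4 H1 genes and 10 of 13 H2A genes rose, no H2A gene fell, and 4 of 13 H2B genes rose and 3 fell. Without the 3 H2A genes that reached the filter's cutoff in only 3 libraries, 7 of 10 H2A genes rose and none fell. Their median log2 fold change was then 0.85, against 1.24 with those 3. The members' counts without them were 29 of 50 higher and 6 lower. Of the H3 genes 7 rose and 1 fell, and of the H4 genes 7 rose and 2 fell. The largest rises among members of at least 1 CPM were those of HIST1H1B (14.9, 13.2 and 15.2 CPM with GATA2 overexpression, against 2.34, 1.44 and 2.53 CPM in CD38+ control), HIST1H3B and HIST1H2BF, at log2 fold changes of 2.77 ± 0.17, 2.49 ± 0.25 and 2.31 ± 0.27 (SE, adjusted p = 7.13e-11, 6.08e-08 and 4.82e-07). The largest falls were those of HIST1H2BD, HIST1H2BK and HIST1H3H, by 0.87 ± 0.12, 0.71 ± 0.08 and 0.66 ± 0.12 on the log2 scale (SE, adjusted p = 3.80e-06, 1.87e-07 and 0.000125). HIST1H4C was 2.76-fold higher (2194, 2129 and 2196 CPM with GATA2 overexpression, against 817, 807 and 740 CPM in CD38+ control, adjusted p = 4.74e-17). None of these 7 genes overlapped between the groups. HIST1H2AC had 54.4, 60.2 and 53.1 CPM with GATA2 overexpression, against 60.7, 58.1 and 56.2 CPM in CD38+ control. Its groups overlapped, it was not called (adjusted p = 0.248), and the sign of its log2 fold change turned from -0.06 to 0.10 with library size alone.

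Genes that serve histone mRNA and nucleosome assembly were counted beside the members. Of 22 factors of histone gene transcription, 3′ processing and decay, 16 were higher and 4 lower with GATA2 overexpression over CD90+ control, and 6 were higher and 14 lower in CD90+ over CD38+ control. With library size alone these counts were 8 higher and 6 lower, and 13 higher and 6 lower, so the balance between CD90+ and CD38+ control turned with the scaling. SLBP, which binds the stem-loop printed above, averaged 217 ± 9.03 CPM with GATA2 overexpression and 153 ± 0.986 CPM in CD90+ control (SD, n = 3 each), a 1.42-fold rise (adjusted p = 4.53e-11). NPAT, named after its values were seen, averaged 23.8 ± 1.18 CPM with GATA2 overexpression and 19.6 ± 1.52 CPM in CD90+ control, a 1.21-fold rise (adjusted p = 0.00185). ERI1, an exonuclease that trims the histone stem-loop during decay, averaged 30.1 ± 1.33 CPM in CD90+ control and 74.3 ± 2.04 CPM in CD38+ control, a 2.46-fold fall (adjusted p = 3.57e-14). Of 19 tested histone chaperones and assembly factors, 13 were higher and 3 lower with GATA2 overexpression over CD90+ control, and 3 were higher and 12 lower in CD90+ over CD38+ control, which became 9 and 6, and 8 and 7, with library size alone. ASF1B, a chaperone of H3 and H4, averaged 69.6 ± 2.03 CPM in CD90+ control and 183 ± 2.13 CPM in CD38+ control (2.62-fold lower, adjusted p = 5.39e-17).

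Histone genes outside the clusters, which mostly encode replication-independent variants with polyadenylated mRNAs, were higher in 10 and lower in 1 of 12 cases with GATA2 overexpression over CD90+ control. In CD90+ over CD38+ control none of the 12 was higher and 11 were lower. Of the 53 clustered members tested there, 23 were higher, 9 lower and 21 not called. That was 43.4% higher, near the 41.1% of all genes, and 17.0% lower, against 39.3% of all genes. Among the 32 clustered members with a mean of at least 1 CPM it was 46.9% higher and 28.1% lower. With library size alone the genes outside the clusters gave 8 higher and 2 lower with GATA2 overexpression over CD90+ control. For CD90+ over CD38+ control they gave 3 higher and 6 lower. H3F3A, which encodes the variant H3.3, averaged 2058 ± 17.8 CPM with GATA2 overexpression and 858 ± 14.9 CPM in CD90+ control (2.40-fold, adjusted p = 1.08e-17). H1F0, a linker histone gene of differentiated cells, averaged 215 ± 0.606 CPM in CD90+ control and 1221 ± 22.0 CPM in CD38+ control (5.66-fold lower, adjusted p = 3.56e-21).

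Of 20 DNA synthesis genes, 19 were higher and none lower with GATA2 overexpression over CD90+ control, and of 16 mitosis genes 15 were higher and 1 lower. In CD90+ over CD38+ control the counts were 10 higher and 9 lower for DNA synthesis and 1 higher and 14 lower for mitosis. All genes tested were called 38.0% higher and 39.6% lower in the first of these comparisons, and 41.1% and 39.3% in the second. With library size alone the DNA synthesis counts were 17 higher and 1 lower for GATA2 overexpression over CD90+ control. For CD90+ over CD38+ control they were then 12 higher and 8 lower, and the mitosis counts were 6 higher and 9 lower. Summed levels of the DNA synthesis list were 3066 to 3114 CPM with GATA2 overexpression, 1880 to 1891 CPM in CD90+ control and 2448 to 2494 CPM in CD38+ control. On the same TMM scale the 61 histone genes other than HIST1H4C summed to 300.0 to 305 CPM with GATA2 overexpression, 204 to 206 CPM in CD90+ control and 214 to 226 CPM in CD38+ control, the same order. With library size alone the DNA synthesis sums averaged 3023 CPM with GATA2 overexpression, 2193 CPM in CD90+ control and 2167 CPM in CD38+ control. The sums of the 61 histone genes then averaged 297, 239 and 194 CPM in that order of groups. Both thus put CD90+ control above CD38+ control, the reverse of TMM. PCNA, the sliding clamp of DNA polymerases, averaged 327 ± 4.43 CPM with GATA2 overexpression and 147 ± 1.02 CPM in CD90+ control (2.23-fold, adjusted p = 3.77e-17). The part of DNA synthesis in the histone values was not tested.

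Markers of other cells moved with the same comparisons. The background over all genes tested was 38.0% higher and 39.6% lower with GATA2 overexpression over CD90+ control. It was 41.1% higher and 39.3% lower in CD90+ over CD38+ control. With GATA2 overexpression over CD90+ control 14 of 15 macrophage markers were lower and none higher, and their summed level was 883 to 941 CPM with GATA2 overexpression, 2608 to 2659 CPM in CD90+ control and 4195 to 4229 CPM in CD38+ control. Of 16 mesenchymal markers 14 were lower and 1 higher, at sums of 818 to 833 CPM with GATA2 overexpression, 1824 to 1843 CPM in CD90+ control and 232 to 239 CPM in CD38+ control. Of 13 mast cell and basophil markers 11 were higher and 2 lower, at 866 to 905 CPM with GATA2 overexpression, 280 to 287 CPM in CD90+ control and 6112 to 6348 CPM in CD38+ control. That list includes the overexpressed gene GATA2, whose rise was given by the design. GATA2 averaged 376 CPM with overexpression, 87.3 CPM in CD90+ control and 569 CPM in CD38+ control. CLC averaged 327 CPM with GATA2 overexpression, 76.6 CPM in CD90+ control and 3681 CPM in CD38+ control. GATA2 and CLC thus made up much of each sum. Of 14 erythroid markers 10 were lower and 2 higher, at 630 to 722 CPM with GATA2 overexpression, 1076 to 1099 CPM in CD90+ control and 393 to 403 CPM in CD38+ control. POSTN and AHSP were at 0 in CD38+ control, and CMA1 was at 0 there and with GATA2 overexpression. In CD90+ over CD38+ control, 6 macrophage markers were higher and 8 lower, 15 mesenchymal markers higher and none lower, 2 mast cell and basophil markers higher and 10 lower, and 13 erythroid markers higher and 1 lower. The part of cell composition in the histone results was not tested.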

How the data were processed

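The 9 libraries, in 3 groups of 3, were strand-specific and read from both ends, per the labels' protocols. The values analysed here were the authors' deposited counts of reads per gene symbol, with no correction for depth. HISAT2, featureCounts and the hg38 build were used, per the submitters' processing notes. Versions, annotation, the handling of multiply mapped reads and whether strand was used in counting were not given in the sources used here. At unknown strand use, overlapping genes cannot be told apart, which touches 12 members.

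Counts of all 21229 genes were fitted with edgeR 4.0.16 in R 4.3.3 (quasi-likelihood test, TMM factors, filterByExpr with a minimum count of 10 and a minimum total of 15, group means over 9 libraries, no block). That kept 16232 genes at a cutoff of 0.234 CPM, and p-values were adjusted over them by Benjamini-Hochberg, with calls under 0.05. The common dispersion of 0.00452 gives a biological coefficient of variation of 6.72%. Each SE is the size of a log2 fold change over the root of its F statistic, 95% intervals use the t distribution with edgeR's degrees of freedom, and shares of counts were summarised without a test. Replicates of a group differed by more than counting noise (chi-square of 3.96 to 7.84 per degree of freedom). Same-numbered replicates of different groups showed no shared deviation from their group means, at correlations of -0.061 to 0.015. This check cannot exclude a pairing of the cultures, which the labels do not state.

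A histone model was classed as long where it had more than 1 exon or ran over 100 bases past the stem-loop. Near-identical copies were found with blastn 2.17.0 (at least 98% identity over at least 80% of a transcript). Gene positions are from GENCODE 29 and promoters from RefSeq. Where a group had 0 counts, a bound was set from 3 counts over the group, 0.0261 CPM in CD38+ control, which covers counting error only.

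Members named were the 3 most abundant of each type and the 3 largest called rises and falls of each comparison at a mean of at least 1 CPM, and genes outside the members came from 9 lists of 151 genes. The members and lists were chosen with earlier results of these data known. On simulated counts with known changes, at least 90.0% of genes of 1 CPM or more that were changed 2-fold were called in each comparison, and 4.32% to 11.4% of calls were false. The simulation changed only a small part of the genes, evenly up and down, from mean levels shared by all groups. In the data 77.6% to 83.2% of genes were called, so these rates cannot be taken as those of the data. Alternatives were RLE, upper-quartile or no scaling factors, dropping the filter or keeping genes that reach 1 CPM in 3 or more libraries, limma voom (limma 3.58.1), DESeq2 1.42.0, the 2 groups alone, a replicate block, each library left out and members with copies left out.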

Additional observations from a re-analysis of the deposited data

How the results depend on the processing

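With library size alone, the median over all tested genes moved on the log2 scale by -0.25 (GATA2 overexpression over CD90+ control), 0.41 (CD90+ over CD38+ control) and 0.16 (GATA2 overexpression over CD38+ control), and 35.5%, 71.2% and 58.0% of called genes were higher, against 49.0%, 51.2% and 52.1% with TMM. In that order, library size alone gave 8, 4 and 3 members lower and members' medians of 0.41, 0.85 and 1.07. Upper-quartile factors gave 64.3% of called genes higher and a members' median of 0.70 for CD90+ over CD38+ control and 1.06, with 3 members lower, for GATA2 overexpression over CD38+ control. At least 1 CPM in 3 libraries gave medians of 0.48 and 0.79 for GATA2 overexpression over CD90+ and over CD38+ control. DESeq2 gave 0.81 for GATA2 overexpression over CD38+ control and limma voom 0.32 for CD90+ over CD38+ control. Without near-identical copies the median was 0.39 for GATA2 overexpression over CD90+ control, and the histone share in CD90+ control 0.0938%. The cause of these shifts was not tested.

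Leaving out 1 library at a time gave 22 to 28 members higher, 3 to 5 lower and medians of 0.51 to 0.67 for GATA2 overexpression over CD90+ control. It gave 19 to 23, 8 to 9 and 0.33 to 0.52 for CD90+ over CD38+ control, and 30 to 35, 4 to 6 and 0.87 to 1.03 for GATA2 overexpression over CD38+ control. Histone shares ranged from 0.241% to 0.244%, 0.0948% to 0.0956% and 0.0870% to 0.0904% in the 3 groups. With a replicate block, 24 rose and 4 fell, 22 rose and 9 fell, and 31 rose and 6 fell in the 3 comparisons.

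Some signs turned, those of HIST1H1E, HIST1H4C and HIST1H2BK among called values. For GATA2 overexpression over CD90+ control, HIST1H3G had log2 fold changes of -0.01 with RLE, -0.20 with library size alone, -0.07 with upper-quartile factors, -0.05 at 1 CPM, -0.0041 with DESeq2, -0.15 without replicate 2 of GATA2 overexpression and -0.03 without replicate 1 of CD90+ control. HIST1H2BF had -0.14 with library size alone, -0.0043 with upper-quartile factors and -0.01 without replicate 3 of GATA2 overexpression, which also gave HIST1H2BD 0.05. HIST1H2BK had -0.07 with library size alone. For CD90+ over CD38+ control, library size alone gave 0.05 for HIST1H1E, 0.23 for HIST1H2AG and 0.05 for HIST1H4C, and upper-quartile factors 0.09 for HIST1H2AG. For GATA2 overexpression over CD38+ control, HIST1H2AC had 0.10 with library size alone and 0.09 with upper-quartile factors. Of all single-gene values recomputed, 1008 kept their direction and call and 18 turned sign. Among those that kept their sign, 36 lost a call and 18 gained one. The turned values of HIST1H1E, HIST1H4C and HIST1H2BK were no longer called either (adjusted p = 0.533, 0.162 and 0.419 with library size alone). Over the libraries left out in turn, the log2 fold change for GATA2 overexpression over CD90+ control ran from -0.15 to 0.18 for HIST1H3G, -0.01 to 0.22 for HIST1H2BF and -0.18 to 0.05 for HIST1H2BD. At low counts a difference that was not called was not shown to be absent.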
